A study of Mus musculus with 6 samples.

Results

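The genes described here are 34 targets of the transcription factor p53, taken from a list of known targets without the kinase inhibitors, Mdm2 and the BCL2 family, and 32 of the 34 were measured among 22180 genes. They were read in basal cells of the mouse mammary epithelium on 6 whole-transcript expression arrays, 3 of wild type mice and 3 of mice labelled Trp53-/-, p16ink4a-/- and p19arf-/-, hereafter the knockout. Trp53 encodes p53, and the Cdkn2a locus encodes both p16Ink4a and p19Arf, so the design removes p53 together with the Cdkn2a products and cannot separate them. All mice were virgin females aged 8 to 14 weeks, and the labels call the arrays biological replicates. No treatment or induced damage is named for either genotype. The strain, and whether the alleles were constitutive, are not given in the sources used here.

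p53 is a sequence-specific activator that is kept scarce in unstressed cells and accumulates after DNA damage, oncogene signalling or other stresses. Its target genes halt the cell cycle, restrain growth through mTORC1, repair DNA, adjust metabolism or prepare the cell for death. Many of these genes also answer to other transcription factors, which can set a basal level that needs no p53. The part of such factors in these data was not tested. The comparison addresses how much of each target's transcript level was left in basal cells labelled as lacking p53 and the Cdkn2a products.

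In the knockout, which by its labels lacks p53 and the Cdkn2a products, the targets were still read at levels close to those of wild type cells. No member passed limma's test at a Benjamini-Hochberg adjusted p under 0.05, and 0% of all 22180 genes were called in either direction. Every member had an adjusted p of 1.0. At an unadjusted p under 0.05 there was 1 member, Apaf1, which was higher, beside 1.61% of all genes that were higher and 1.71% that were lower. Of the 32 members 17 had a higher and 15 a lower estimate in the knockout, and 48.3% of all genes had a higher one. The median log2 fold change was 0.03 over the members and -0.0067 over all genes. A knockout level below 50% of wild type lay outside the 95% interval for 30 of 32 members, as it did for 97.1% of all genes. The exceptions were Ei24 and Trp53inp1, with lower bounds of 46.9% and 49.3%. The whole interval lay between 50% and 200% for 29 members and for 95.2% of all genes. The probe sets of 6 members, Sesn1, Ddit4l, Ckap2, Trp53cor1, Eda2r and Aen, were dim, with a mean below 5.78, the median over genes, and a change of a dim probe set can be understated. Among the other 26 members the lower bound exceeded 50% for 24, and the whole interval lay between 50% and 200% for 23. This cut does not mark detection. In wild type the adipocyte marker Lep, at 6.15, and the endothelial marker Vwf, at 6.21, read above it, and the adipocyte marker Adipoq, at 4.31, below. Of these 26 members, Apaf1, Rrm2b, Inka2 and Zmat3 had wild type means of 5.78, 5.80, 5.85 and 6.04, so their changes can be understated too. A p above the threshold does not show that the levels were equal, and the intervals give the range that 3 arrays per genotype allow.

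Promoter sequences are shown for 6 of the members whose upstream window holds the consensus half-site of p53, the palindromic motif that p53 binds in pairs. RefSeq sequence of assembly GRCm38.p6 covered 28 of the 34 genes, from 250 bases before to 50 bases after each annotated start. A half-site with no mismatch, a motif of 10 letters that reads alike on both strands, lay in a window of 10 of these 28 genes, or 35.7%. Among all genes with such a window, 27025 in number, 9.55% had one. Counted by window, the shares were 27.5% of 40 member windows and 8.36% of 32851 windows. The members were listed as known p53 targets, so their higher share is not independent evidence of p53 binding. The half-site is in capitals in the 250 bases upstream of 6 starts.
Sesn1, chr10:41887189-41887438, plus strand: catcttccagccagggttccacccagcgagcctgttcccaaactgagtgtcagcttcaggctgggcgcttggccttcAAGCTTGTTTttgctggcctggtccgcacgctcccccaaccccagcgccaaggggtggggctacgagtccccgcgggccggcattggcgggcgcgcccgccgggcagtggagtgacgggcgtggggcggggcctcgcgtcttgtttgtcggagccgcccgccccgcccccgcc
Ccng1, chr11:40755287-40755536, minus strand: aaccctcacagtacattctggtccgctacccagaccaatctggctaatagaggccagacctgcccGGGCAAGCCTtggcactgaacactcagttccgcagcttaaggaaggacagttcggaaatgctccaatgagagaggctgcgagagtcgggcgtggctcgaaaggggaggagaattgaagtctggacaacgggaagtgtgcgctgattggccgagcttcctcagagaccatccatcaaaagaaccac
Ei24, chr9:36797335-36797584, minus strand: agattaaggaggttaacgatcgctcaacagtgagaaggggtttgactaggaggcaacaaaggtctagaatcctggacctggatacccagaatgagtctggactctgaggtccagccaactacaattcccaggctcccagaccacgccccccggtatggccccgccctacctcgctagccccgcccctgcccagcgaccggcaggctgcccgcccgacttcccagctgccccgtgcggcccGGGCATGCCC
Aen, chr7:78895808-78896057, plus strand: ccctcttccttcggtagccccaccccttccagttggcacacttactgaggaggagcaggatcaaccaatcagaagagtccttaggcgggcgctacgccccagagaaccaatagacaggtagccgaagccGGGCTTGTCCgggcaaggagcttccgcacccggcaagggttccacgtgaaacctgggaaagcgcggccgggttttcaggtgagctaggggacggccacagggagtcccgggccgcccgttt
Ddit4l, chr3:137623422-137623671, plus strand: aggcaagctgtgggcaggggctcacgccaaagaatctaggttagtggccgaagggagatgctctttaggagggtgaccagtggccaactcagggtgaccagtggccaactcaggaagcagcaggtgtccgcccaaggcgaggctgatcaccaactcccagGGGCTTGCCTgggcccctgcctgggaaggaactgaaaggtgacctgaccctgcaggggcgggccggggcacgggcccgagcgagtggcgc
Ckap2, chr8:22185820-22186069, minus strand: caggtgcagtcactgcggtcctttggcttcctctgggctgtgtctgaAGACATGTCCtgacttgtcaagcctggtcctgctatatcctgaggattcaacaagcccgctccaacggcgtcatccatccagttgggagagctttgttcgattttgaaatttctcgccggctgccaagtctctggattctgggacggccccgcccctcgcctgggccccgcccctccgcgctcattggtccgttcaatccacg
The match began 173 bases before the start in Sesn1, 185 in Ccng1, 10 in Ei24, 121 in Aen, 90 in Ddit4l and 203 in Ckap2. The windows shown for Sesn1 and Aen belong to 1 of 2 annotated starts each, and the window of the other Aen start also holds a match. The other 4 genes, whose sequences are not shown, were Gadd45a with GGGCTAGCCC, Inka2 with GGGCTTGTCT, Polk with GAACTAGCCT and Abhd4 with GGGCTTGTTT. The match began 40 bases before the start in Gadd45a, 81 in Inka2 and 231 in Polk. In Abhd4 it began 1 base after the start. The matches of Inka2, Polk and Abhd4 also lay in the window of 1 of 2 annotated starts each. A match describes letters only, and p53 sites outside these windows were not searched. The 9 measured genes with a half-site had 4 higher and 5 lower estimates in the knockout, with a median log2 fold change of -0.02. The 17 measured genes with a window and no half-site had 11 higher and 6 lower estimates, with a median of 0.11. The difference between these 2 sets was not tested.

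All values are RMA log2 values per probe set, and a probe set's value cannot be set against that of another gene as an amount. Cdkn2a, the deleted locus that the arrays measured, read 6.42, 5.84 and 6.48 in wild type and 6.25, 6.31 and 6.39 in the knockout, so the labels were not checked by it. Whether its probes fall inside the deleted part is not given in the sources used here, and Trp53 was not analysed here. The basal keratin Krt14 read between 13.21 and 13.51 and smooth muscle actin Acta2 between 12.27 and 12.56 on the 6 arrays. Trp63, another basal marker, read between 7.17 and 8.16. The luminal keratins Krt8, between 11.01 and 11.86, and Krt18, between 10.61 and 12.16, were bright too, with 99.1% and 99% of genes lower. Of 15 basal markers 14 were measured, with list means of 10.4 to 10.6 in wild type and 10.3 to 10.7 in knockout arrays. The 16 measured luminal markers of 18 had means of 7.42 to 8.48 in wild type and 7.52 to 7.87 in the knockout, with 14 estimates lower. All 10 fibroblast markers had higher estimates in the knockout, with means of 6.64 to 7.08 in wild type and 7.37 to 7.44 in the knockout. Endothelial means were 5.20 to 5.44 and 5.35 to 5.44, blood cell means 4.80 to 4.97 and 4.90 to 5.02, and adipocyte means 5.53 to 5.65 and 5.76 to 5.83, in wild type and knockout respectively. The 9 measured adipocyte markers had 7 higher and 2 lower estimates in the knockout. Their median log2 fold change was 0.13, and the largest was 1.31, for Fabp4. RMA values have no true zero, and none of these lists had a marker at 0. The part of other cell types in the results on p53 targets was not tested. In bulk samples, fewer cells of a type and less RNA per cell cannot be told apart.

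**Figure D1:**
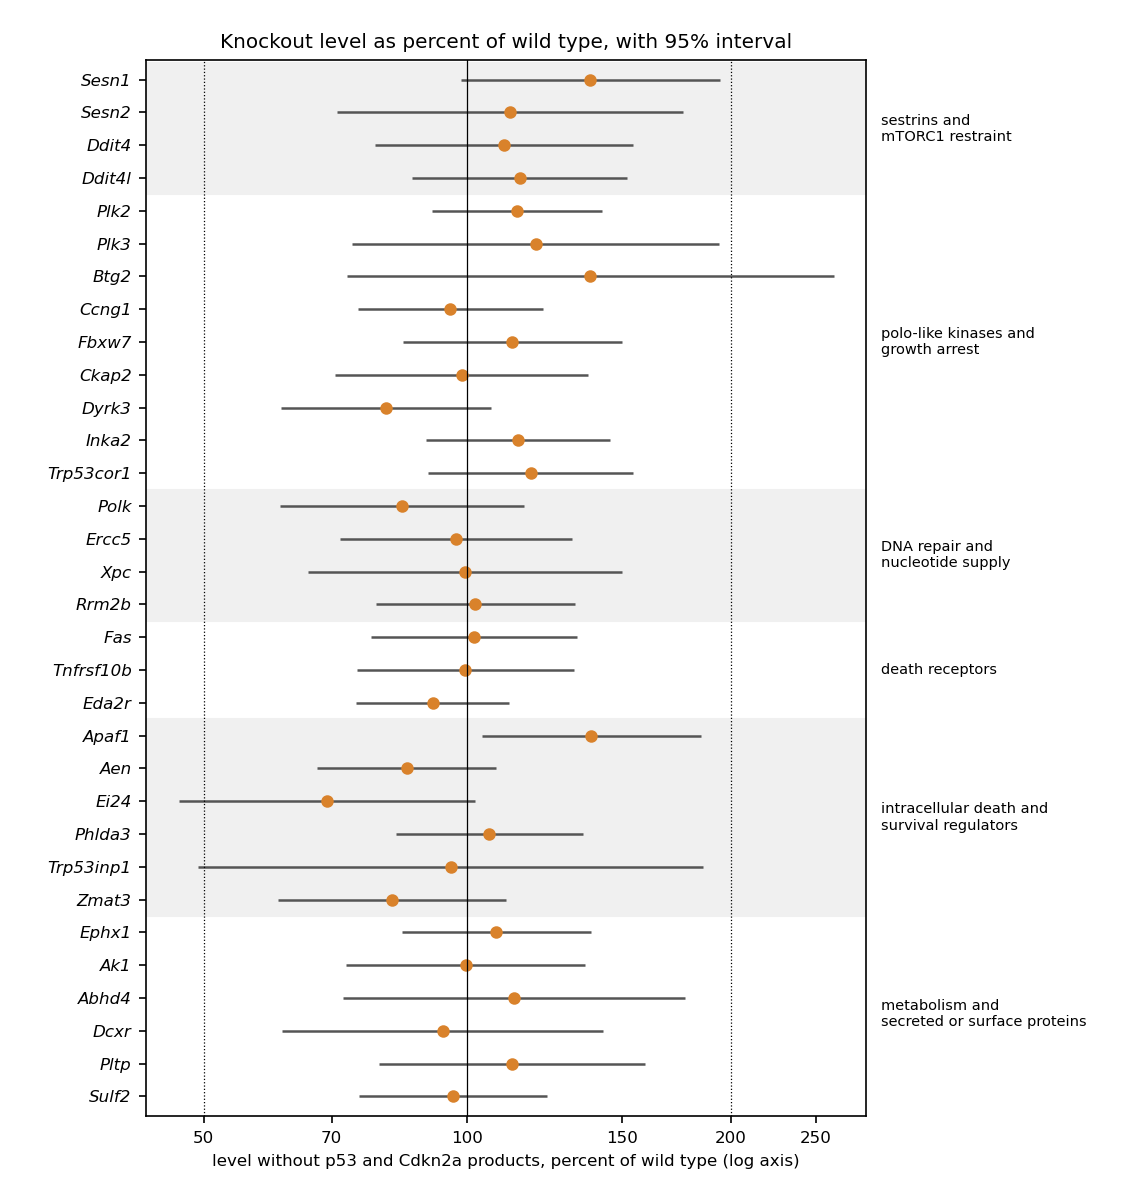
Level of each of the 32 measured p53 target genes in the knockout as percent of wild type, on a log axis, with the 95% interval of the limma fit over 3 arrays per genotype as a line. Dotted lines stand at 50% and 200%, and 29 of the 32 intervals lie between them, with Btg2, Ei24 and Trp53inp1 reaching past.

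Genes that restrain mTORC1 had higher estimates in the knockout in 4 of 4 cases, none past the test, with a median log2 fold change of 0.18. The sestrins Sesn1 and Sesn2 are stress-induced proteins that signal amino acid shortage to mTORC1, and Ddit4 and Ddit4l encode the REDD proteins, which act on mTORC1 through the TSC complex. Sesn1 read 4.49, 4.18 and 3.82 in wild type and 4.35, 5.01 and 4.53 in the knockout. The groups overlapped, because wild type replicate 1 lay above knockout replicate 1. Its knockout level was 138% of wild type with an interval of 98.4% to 194%, or 0.47 on the log2 scale (SE 0.216), and 0.28 on that scale without knockout replicate 2.

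Sesn2 read 8.59, 8.06 and 7.62 in wild type and 8.21, 8.69 and 7.85 in the knockout. The range within each genotype was wider than the difference of 0.16 between the means. Its knockout level was 112% of wild type, with an interval of 71.1% to 176%, and its sign turned to -0.073 without wild type replicate 3. Ddit4 read 6.85, 6.96 and 6.53 in wild type and 7.10, 7.14 and 6.51 in the knockout. Replicate 3 was the lowest in both genotypes, and the interval of the knockout level ran from 78.4% to 155% of wild type. Ddit4l read 5.85, 5.36 and 5.56 in wild type and 6.0, 5.58 and 5.78 in the knockout. Each knockout array was higher than the wild type array of the same number, and the groups overlapped, with a level of 115% of wild type and an interval of 86.6% to 152%.

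Kinases and other genes of growth arrest had 6 higher and 3 lower estimates among 9 measured of 10, with a median log2 fold change of 0.19. Gadd45a, a damage-induced stress sensor, was the gene not measured, since its probe set carries the names of 2 genes. Plk2, a polo-like kinase induced by stress and growth signals, read 9.35, 9.50 and 9.42 in wild type and 9.52, 9.69 and 9.63 in the knockout. The groups did not overlap, although knockout replicate 1 lay barely above wild type replicate 2. The log2 fold change was 0.19 (SE 0.142), and the groups overlapped when arrays were centred on their medians. Plk3, its stress-responsive relative, read 8.58, 9.04 and 8.08 in wild type and 9.10, 9.14 and 8.24 in the knockout. Its spread within each genotype, 0.480 and 0.512 (SD, n = 3 each), exceeded its log2 fold change of 0.26, although each same-numbered difference was positive. Leaving out wild type replicate 3 brought the log2 fold change to 0.016, and leaving out knockout replicate 3 brought it to 0.55.

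Btg2, an antiproliferative protein that recruits the mRNA deadenylation machinery, read 9.03, 9.13 and 8.64 in wild type and 9.31, 10.40 and 8.48 in the knockout. Knockout replicate 2 was the highest of all arrays and knockout replicate 3 the lowest. The log2 fold change of 0.47 (SE 0.408) turned to -0.034 without knockout replicate 2. The interval of the knockout level, 72.8% to 262% of wild type, was the only one among the members to extend above 200%.

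Dyrk3, a kinase that dissolves stress-induced condensates, was the only member with all knockout arrays below all wild type arrays. It read 8.01, 8.49 and 8.27 in wild type and 7.97, 7.93 and 7.94 in the knockout. The knockout level was 80.7% of wild type, with an interval of 61.3% to 106%, and the groups overlapped when arrays were centred on their medians. Ccng1, cyclin G1, which brings a phosphatase to Mdm2, read 10.24, 10.32 and 10.61 in wild type and 10.26, 10.50 and 10.21 in the knockout. The groups overlapped throughout, and the knockout level was 95.6% of wild type with an interval of 75.0% to 122%.

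Trp53cor1, the noncoding RNA known as lincRNA-p21, read 5.58, 5.09 and 5.31 in wild type and 5.77, 5.51 and 5.42 in the knockout. Each same-numbered difference was positive, the groups overlapped, and the level was 118% of wild type with an interval of 90.3% to 155%. Fbxw7, a ubiquitin ligase subunit that marks cyclin E for destruction, read from 6.90 to 7.33 in wild type and from 7.07 to 7.34 in the knockout. Inka2, an inhibitor of the kinase PAK4, read from 5.64 to 5.97 and from 5.95 to 6.10. Ckap2, a spindle protein, read 5.74, 5.29 and 6.05 in wild type and 5.65, 5.89 and 5.48 in the knockout, at 98.6% of wild type. The 25 measured mitosis genes had means of 5.58, 5.02 and 6.29 in wild type and 5.09, 5.30 and 5.49 in the knockout, with 23 estimates lower in the knockout. The wild type order of these means was also that of Ckap2 and of 13.4% of all genes, and the knockout order differed. The part of mitosis in the values of Ckap2 was not tested.

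**Figure D2:**
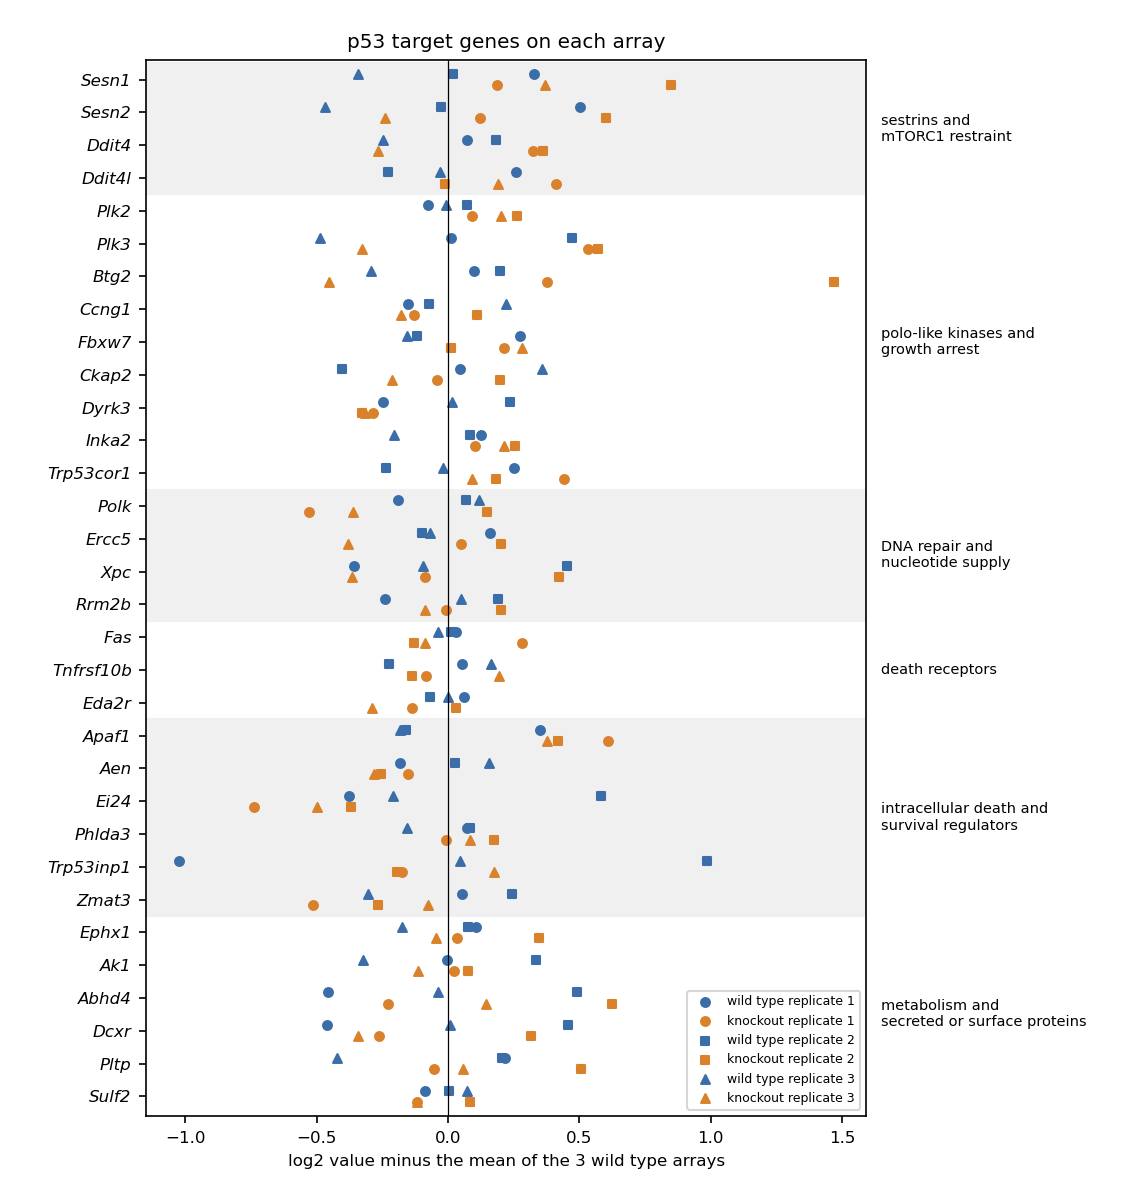
Log2 value of each measured p53 target on each of the 6 arrays, minus that gene's mean over the 3 wild type arrays; colour gives the genotype and shape the replicate number. Wild type and knockout points overlap for every gene except Plk2 and Apaf1, where the knockout is higher, and Dyrk3, where it is lower.

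Genes of DNA repair and nucleotide supply had 1 higher and 3 lower estimates among 4, with a median log2 fold change of -0.02. Polk, the translesion polymerase kappa, read 6.34, 6.60 and 6.65 in wild type and 6.0, 6.68 and 6.17 in the knockout. Knockout replicate 2 was the highest of the 6 arrays and the other knockout arrays were lower than every wild type array, and the level was 84.2% of wild type with an interval of 61.1% to 116%. Xpc, which recognises helix-distorting damage, read 5.96, 6.77 and 6.22 in wild type and 6.23, 6.74 and 5.95 in the knockout. Its replicate 2 was the highest in both genotypes, and its level was 99.4% of wild type with an interval of 65.8% to 150.1%.

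Ercc5, the XPG endonuclease of nucleotide excision repair, read 7.04, 6.78 and 6.81 in wild type and 6.93, 7.08 and 6.50 in the knockout. The knockout values enclosed the wild type values, with a level of 97.2% and an interval of 71.7% to 132%. Rrm2b, the p53-inducible subunit of ribonucleotide reductase, read 5.56, 5.99 and 5.85 in wild type and 5.79, 6.0 and 5.71 in the knockout. The level was 102% of wild type, with an interval of 78.7% to 133%. For all 4 genes the interval lay above 50% and the groups overlapped.

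Fas, Tnfrsf10b and Eda2r, grouped here as death receptors and their relatives, had log2 fold changes between -0.13 and 0.02, and all 3 had overlapping groups. Fas, the receptor of Fas ligand, read 8.30, 8.28 and 8.23 in wild type and 8.55, 8.14 and 8.18 in the knockout. The wild type arrays lay close together (SD 0.037, n = 3), and the knockout arrays lay on both sides of them. The knockout level was 102% of wild type with an interval of 77.5% to 133%. Tnfrsf10b, the mouse TRAIL receptor, read 8.32, 8.04 and 8.43 in wild type and 8.18, 8.13 and 8.46 in the knockout, at 99.4% of wild type with an interval of 74.8% to 132%. Eda2r, a receptor of ectodysplasin A2, was the dimmest member, at 4.07, 3.94 and 4.01 in wild type and 3.87, 4.04 and 3.72 in the knockout. Its level was 91.3% with an interval of 74.7% to 111%.

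Regulators of death inside the cell held both the highest and the lowest log2 fold change of all members. Apaf1, which forms the apoptosome with cytochrome c, read 6.13, 5.62 and 5.60 in wild type and 6.39, 6.20 and 6.16 in the knockout. The groups did not overlap, and wild type replicate 1 stood apart from the other wild type arrays, toward the knockout. The knockout level was 139% of wild type with an interval of 104% to 185%, or 0.47 on the log2 scale (SE 0.184). It was the only member with an unadjusted limma p under 0.05, at 0.0309, and it did not pass the adjustment. The log2 fold change of Apaf1 stayed between 0.38 and 0.64 when any 1 array was left out.

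Ei24, a membrane protein of the endoplasmic reticulum that takes part in autophagy, read 9.56, 10.52 and 9.73 in wild type and 9.20, 9.57 and 9.44 in the knockout. Wild type replicate 2 was far above the other arrays, and wild type replicate 1 fell just below knockout replicate 2, so the groups overlapped. The level was 69.2% of wild type with an interval of 46.9% to 102%. The log2 fold change was -0.53 (SE 0.248), and -0.24 without wild type replicate 2. With the replicate number as a block, unadjusted limma p values under 0.05 were given by 3 members: Ei24 at 0.0137, Apaf1 at 0.0174 and Sesn1 at 0.0457. In that fit 2.38% of all genes had such a p and a higher estimate and 2.64% a lower one, and 0 genes passed the adjustment.

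Trp53inp1, a p53-induced protein of autophagy and cell death, varied most among the members within a genotype. It read 5.90, 7.91 and 6.97 in wild type and 6.75, 6.73 and 7.10 in the knockout. The wild type arrays spread with an SD of 1.01 and the knockout arrays with an SD of 0.207 (n = 3 each), and all knockout values lay inside the wild type range. Its wild type order, with replicate 2 highest and replicate 1 lowest, was also that of the luminal markers, whose means were 7.42, 8.48 and 8.21 on wild type replicates 1, 2 and 3 and 7.82, 7.87 and 7.52 in the knockout. That order held for 8 of 32 members, including Ei24, and for 19.1% of all genes. In the knockout Trp53inp1 was highest on replicate 3, where the luminal mean was lowest. The knockout order of Ei24 also differed from that of the luminal mean. The part of luminal cells in the values of Trp53inp1 and Ei24 was not tested.

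Zmat3, an RNA-binding regulator of splicing, read 6.10, 6.29 and 5.74 in wild type and 5.53, 5.78 and 5.97 in the knockout. The groups overlapped, with a level of 82.1% and an interval of 60.9% to 111%. Aen, a nuclease that degrades DNA in apoptosis, read 5.70, 5.91 and 6.04 in wild type and 5.73, 5.63 and 5.60 in the knockout. The level was 85.2% with an interval of 67.4% to 108%, and wild type replicate 1 lay inside the knockout range. Phlda3, which keeps the kinase AKT off the membrane, read from 8.72 to 8.96 in wild type and from 8.87 to 9.05 in the knockout, at 106% with an interval of 83.0% to 135%.

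Metabolic enzymes and secreted or surface proteins had 3 higher and 3 lower estimates among 6 measured of 7, with log2 fold changes between -0.09 and 0.18. Gdf15, a secreted stress hormone, was the gene not measured, since no probe set is named for it here. Abhd4, a phospholipase of N-acyl phospholipids, read 8.32, 9.27 and 8.74 in wild type and 8.55, 9.40 and 8.92 in the knockout. The replicates kept the same order in both genotypes and each same-numbered difference was positive, at 0.23, 0.13 and 0.17. The level was 113% of wild type with an interval of 72.2% to 177%. Dcxr, a reductase of dicarbonyls and xylulose, read 7.74, 8.66 and 8.21 in wild type and 7.94, 8.52 and 7.86 in the knockout, again with replicate 2 highest in both.

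Pltp, the phospholipid transfer protein, read 10.21, 10.20 and 9.57 in wild type and 9.94, 10.50 and 10.05 in the knockout. Wild type replicate 3 was the lowest array, and without it the sign of the log2 fold change of 0.17 turned to -0.045. Ephx1, microsomal epoxide hydrolase, read from 10.00 to 10.28 in wild type and from 10.13 to 10.52 in the knockout, at 108% with an interval of 84.1% to 138%. Ak1, an adenylate kinase, read from 7.30 to 7.96 and from 7.51 to 7.70, at 99.6%. Sulf2, an enzyme that trims heparan sulfate at the cell surface, read from 7.09 to 7.25 and from 7.06 to 7.26, at 96.4% with an interval of 75.3% to 123%. Values of both genotypes overlapped for each of these genes.

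**Figure D3:**
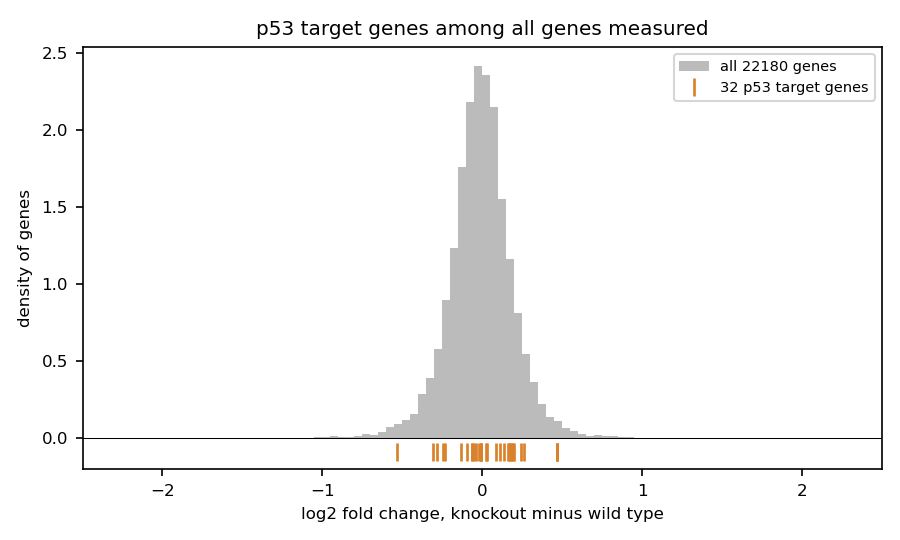
Density of log2 fold changes, knockout minus wild type, over all 22180 genes as grey bars, with the 32 p53 targets as ticks beneath. The ticks lie between -0.53 and 0.47, within the body of the distribution and on both sides of 0.

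Across the members, groups that did not overlap were about as frequent as among all genes. The lowest knockout array exceeded the highest wild type array for 2 of 32 members and 3.63% of genes, and the reverse held for 1 member and 4.05% of genes. Each same-numbered difference was positive for 6 members and 11.5% of genes, and negative for 2 members and 12.3% of genes. The 6 were Ddit4l, Plk2, Plk3, Trp53cor1, Apaf1 and Abhd4, and the 2 were Dyrk3 and Ei24. The median pooled SD within a genotype was 0.233 for the members and 0.208 for all genes.

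The members varied with the replicate number. Knockout replicate 2 was the highest of the 6 arrays for 15 of 32 members, against 14.4% of all genes. Replicate 2 was the highest within both genotypes for 11 members and 16.6% of genes. The mean of the 32 members was 7.34, 7.48 and 7.27 in wild type replicates 1, 2 and 3 and 7.37, 7.57 and 7.28 in the knockout, so that the difference between replicates 2 and 3 exceeded that between genotypes. Genes of the immediate early and dissociation stress response, with 28 measured and none of them a member, had means of 9.48, 9.74 and 9.03 in wild type and 9.75, 10.15 and 9.23 in the knockout. In the knockout 24 of these 28 genes had a higher estimate, with a median log2 fold change of 0.33. Members such as Plk2 and Plk3 also respond to stress, so this list is not separate from the members in function. Within each genotype, replicate 2 had the highest and replicate 3 the lowest mean of the members and of the stress genes. The basal markers, at 10.44, 10.55 and 10.35 in wild type and 10.42, 10.66 and 10.3 in the knockout, and the mean over all genes, at 5.974, 5.987 and 5.967 and then 5.965, 5.979 and 5.958, had the same order. Of single members, Ddit4, Plk3, Btg2 and Ak1 had that order in both genotypes, 12.5% of the members against 4.25% of all genes. The medians of the members were 7.21, 7.55 and 7.11 in wild type and 7.19, 7.20 and 7.22 in the knockout. They had that order in wild type only. The medians over all genes were 5.81, 5.73 and 5.76 in wild type and 5.77, 5.79 and 5.75 in the knockout. They had that order in the knockout only. The part of dissociation stress in these values was not tested.

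**Figure D4:**
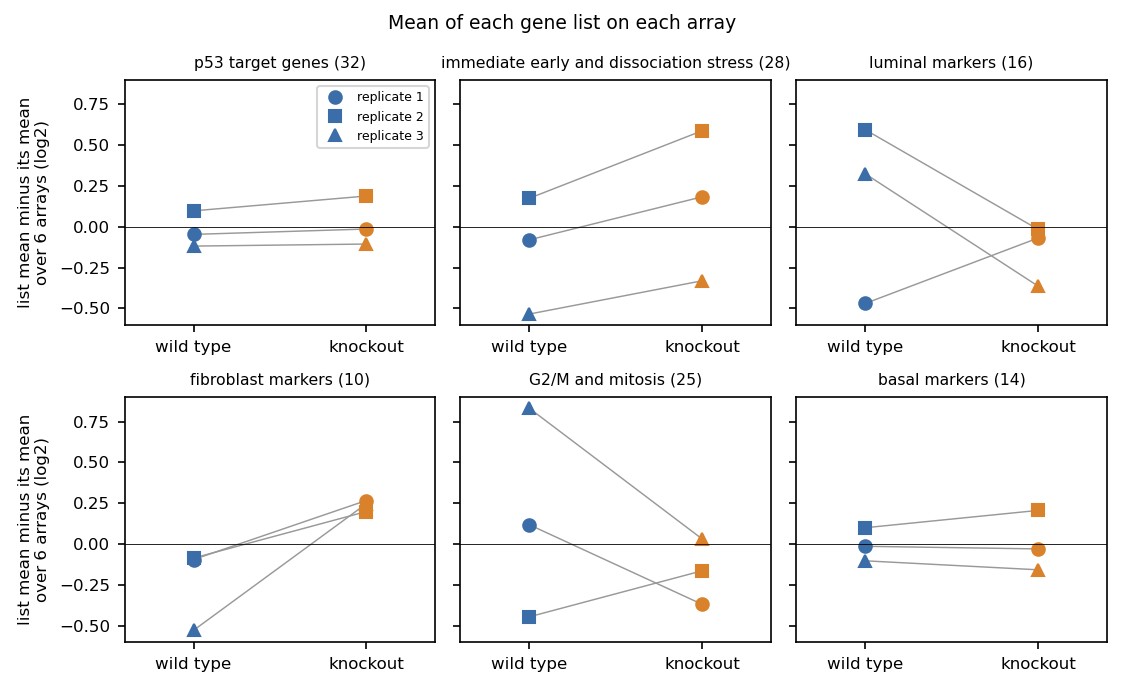
Mean log2 value of 6 gene lists on each array, minus the list's mean over the 6 arrays, with lines joining arrays of the same replicate number and the number of genes in brackets. The p53 targets, the stress genes and the basal markers have their top point at replicate 2 and their bottom point at replicate 3 within each genotype, while the fibroblast markers are higher in all knockout arrays.

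Other genes of the p53 pathway, outside the members, gave a like picture. Of 39 listed 33 were measured, with 22 higher and 11 lower estimates, a median log2 fold change of 0.05 and 0 past limma's test in either direction, at an adjusted or an unadjusted p under 0.05. With the replicate block, limma called 0 after adjustment, and Tap1 (higher) and Cd82 (lower) had an unadjusted p under 0.05, at 0.0274 and 0.0366. Cdkn1a, the kinase inhibitor p21, read 12.63, 12.65 and 12.25 in wild type and 12.68, 12.69 and 12.33 in the knockout, which is 104% of wild type with an interval of 83.1% to 131%. Mdm2, the ubiquitin ligase that degrades p53, was at 118% with an interval of 90.8% to 154%. The smallest unadjusted p values belonged to Sfn, Cd82, Tap1 and Mdm4. Sfn, the cell cycle regulator 14-3-3 sigma, read 8.41, 9.13 and 8.45 in wild type and 8.25, 7.79 and 8.31 in the knockout, with every knockout array lower and a level of 68.4% with an interval of 46.8% to 100.01%. The tetraspanin Cd82 was at 65.3% of wild type, the Mdm2 relative Mdm4 at 82.8% and the peptide transporter Tap1 at 132%, each with overlapping groups and an adjusted p of 1.0.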

How the data were processed

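The authors deposited log2 expression values per probe set, made with RMA and Transcriptome Analysis Console 4.0, per the submitters' processing notes. RMA pulls arrays to a common distribution, so a shift shared by most genes would not be seen. Of 41345 rows 23521 carried 1 gene symbol, and per gene the row of highest mean over 6 arrays was kept, leaving 22180 genes. No member had several rows. The knockout was tested against wild type by limma 3.58.1 (lmFit and eBayes, trend on, R 4.3.3), two-sided, with Benjamini-Hochberg adjustment over all genes and a threshold of 0.05. Percent of wild type is 2 raised to the log2 fold change, with the moderated 95% interval. Arrays have no depth of reads. Their number, 3 per genotype, limits precision.

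The members, their grouping by function and the lists were chosen with earlier results of these data known. Beside the members, 4 pathway genes of smallest p, Cdkn1a and Mdm2 were to be named. After subtracting group means, arrays 1, 2 and 3 of both genotypes correlated across genes at 0.121, 0.25 and 0.127. All exceed 0.1, so the numbers were taken as pairs in a fit with a replicate block, although the labels do not say what they share and wild type 1 with knockout 3 gave 0.13. Alternatives used no trend, array weights, renormalized or centred arrays, a dim filter, mean rows, another threshold and the block, and each array was left out in turn. Plots were made in matplotlib 3.10.9.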

Additional observations from a re-analysis of the deposited data

How the results depend on the processing

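With a threshold of 0.05 on the adjusted p, 0 genes and 0 members were called in either direction by every limma alternative run, including the fit with the replicate block, whose smallest adjusted p among members was 0.894. At an unadjusted p under 0.05 the calls were 357 genes higher and 379 lower, and 1 member higher. The count of 736 genes became 1970 with array weights, 1112 with the replicate block and between 554 and 1788 when 1 array was left out, and the count of 1 member became 3, 3 and 0 to 4. It was 4 without wild type replicate 1 and 0 without wild type replicate 2 or 3. When arrays were centred on their medians, 1 member lay above in all knockout arrays (Apaf1) and 0 below, against 3.27% and 4.52% of all genes. Leaving out 1 array gave 2 to 7 members above and 1 to 5 below, against 6.56% to 11.8% and 7.63% to 12.4% of all genes. The median log2 fold change of the members was 0.0057 after centring, 0.11 with array weights and between -0.039 and 0.13 when 1 array was left out. Signs turned with array weights for Ak1 (0.17), Ercc5 (0.0070), Rrm2b (-0.00016) and Xpc (0.025), and after a further quantile normalization for Ak1 (0.010). Leaving out 1 array gave log2 fold changes on both sides of 0 for 15 members. They ran from -0.052 to 0.43 for Abhd4, -0.17 to 0.16 for Ak1, -0.034 to 0.92 for Btg2, -0.16 to 0.042 for Ccng1 and -0.22 to 0.16 for Ckap2. They ran from -0.32 to 0.13 for Dcxr, -0.0061 to 0.19 for Ephx1, -0.16 to 0.13 for Ercc5, -0.11 to 0.10 for Fas and -0.045 to 0.28 for Pltp. They ran from -0.089 to 0.12 for Rrm2b, -0.073 to 0.41 for Sesn2, -0.12 to 0.076 for Tnfrsf10b, -0.58 to 0.43 for Trp53inp1 and -0.23 to 0.22 for Xpc. Of the other members, Plk3 (0.016 to 0.55) moved to 0.57 with array weights. The cause was not tested.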
